A study of Mus musculus with 4 samples.

Results

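The genes described here are 35 collagens and other extracellular matrix proteins, taken by symbol from the 27998 genes that 4 single-cell RNA libraries of mouse mammary cells share. All 35 symbols were present in every library. They were grouped by role into 5 fibrillar collagens, 4 basement membrane collagens, 5 cartilage-type collagens, 7 beaded, network and fibril-associated collagens, 9 glycoproteins, 2 cross-linking enzymes and 3 small leucine-rich proteoglycans. Each was described by library in 3 classes of cell barcode: those with keratin (Krt8 plus Krt18 at least 3 UMIs, no Ptprc), those without Epcam or Ptprc, and those with at least 1 Ptprc UMI. A UMI is a tag that marks 1 captured RNA molecule, Krt8 and Krt18 are luminal keratins, Epcam is an epithelial adhesion protein and Ptprc encodes CD45, the common leukocyte antigen.

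The extracellular matrix is built by different proteins in different places. Fibrillar collagens I, III and V form the fibres of connective tissue and are made mainly by fibroblasts, whereas collagens IV, XV and XVIII belong to the basement membrane that lies beneath epithelium and around vessels and fat cells. Collagens IX and XI sit on and inside the collagen II fibrils of cartilage, and are not usual products of the mammary epithelium, in which luminal cells rest on a basement membrane made together with myoepithelial cells.

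The mice were females of mixed genetic background with the alleles Trp53L/L, Brca1L/L and R26Y, a Cre-dependent YFP reporter. All 4 libraries came from such mice after adenovirus Ad-K8-Cre was injected into the ducts, and the genotype is given as Trp53/Brca1-null; no library without the deletions was analysed here. The 2 weeks library held sorted YFP+ mammary epithelial cells taken about 2 weeks after injection. The 5 months library held sorted YFP+ epithelial cells and CD45+ leukocytes taken about 5 months after injection. The libraries of tumour 1 and tumour 2 held live, DAPI- cells of 2 tumour masses, with no YFP gate. Cre expression followed the K8 promoter, which limits deletion to cells in which that promoter and the virus were active, and the sources used here do not give the number of mice behind a library. Stage and sort changed together between the 2 weeks library, the 5 months library and the tumours. Their parts in any difference between these could not be told apart. Only the tumours were replicated, so p-values of tumours against an earlier time measured the spread between these 2 tumours only. Those between barcode classes measured how the class difference varied over the libraries used.

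After filtering, 1301, 4668, 2640 and 1765 barcodes remained in the 2 weeks, 5 months, tumour 1 and tumour 2 libraries, an order kept below wherever 4 values follow each other. Keratin barcodes numbered 1133, 431, 397 and 415, with median depths of 4163, 4550, 14704 and 8296 UMIs. Barcodes without Epcam and Ptprc numbered 131, 1774, 739 and 543, of which 52, 6, 52 and 30 also met the keratin rule. The values below are for the remaining 79, 1768, 687 and 513, called keratin-low Epcam-negative, with median depths of 4154, 1776, 6171 and 5538 UMIs; the summed level of the 35 genes was 2700, 837, 14598 and 8000 CPM (UMIs of a gene per 1000000 UMIs of all genes in that class and library) with the keratin barcodes and 3372, 837, 16331 and 8114 without them. Ptprc-positive barcodes numbered 7, 2348, 1518 and 733, too few at 2 weeks for a level; the 7 held 10 UMIs of Dcn, 1 of Fbln1 and none of the other members. Libraries shared 2 to 16 barcode sequences pair by pair. In keratin barcodes Trp53 stood at 56.2, 36.9, 9.83 and 51.7 CPM and Brca1 at 4.15, 0.935, 1.21 and 1.29; tags from the 3' end may lie outside the deleted part, so these values check nothing about the deletion.

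The keratin-low Epcam-negative class was not a pure stromal class. Its summed level of 7 leukocyte markers was 110, 3342, 3751 and 1764 CPM, against 4174, 5638 and 4729 in Ptprc-positive barcodes of the 5 months and tumour libraries, and all of the list but Ptprc was detected in it in every library. Its 6 macrophage markers summed to 11, 2324, 13981 and 2453. Fibroblast markers (Pdgfra, Dpt, Clec3b, Islr, Scara5 and Cygb) summed to 28.6, 30.7, 265 and 153, with Clec3b, Scara5 and Cygb at 0 at 2 weeks. Basal or myoepithelial markers summed to 653, 21.9, 615 and 102 CPM and endothelial markers to 262, 39.4, 231 and 76.1; the part of these lists in the class levels was not tested. A smaller set of 73, 225, 129 and 223 of these barcodes with fewer than 2 leukocyte-marker UMIs, chosen after the data had been seen and called leukocyte-marker-low, is given beside the class where values moved with it. Levels in CPM carry exact Poisson intervals at 95% where one is given; the intervals cover counting error only, and a lower level from fewer expressing cells cannot be told apart from less RNA per cell.

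The keratin barcodes of both tumours held more matrix RNA than those before tumours, and most of it was glycoprotein, cartilage-type and basement membrane RNA rather than fibrillar collagen. Together the 35 genes made up 371, 445, 2672 and 2153 CPM. Cartilage-type collagens summed to 14.1, 78.5, 467 and 264 CPM, basement membrane collagens to 16.8, 15.4, 317 and 155, and glycoproteins to 43.7, 208, 1420 and 1628. Fibrillar collagens summed to 0.377, 4.21, 138 and 16 CPM. In the keratin-low Epcam-negative class fibrillar collagens led tumour 1, with 6734 CPM of 16331, and glycoproteins led tumour 2, with 5875 of 8114.

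**Figure D1:**
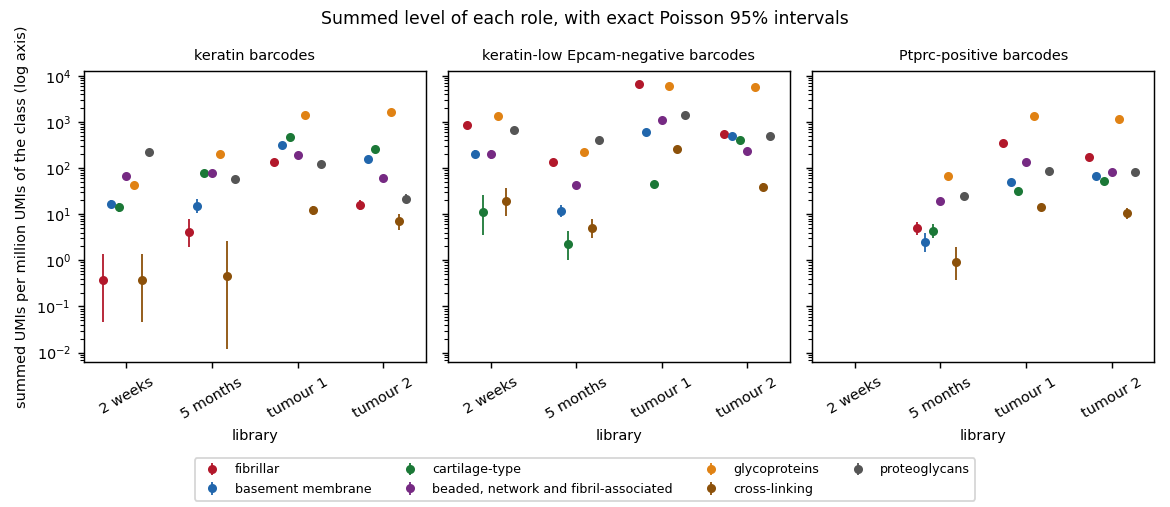
Summed level of each role (CPM of the class, log axis) by library in keratin, keratin-low Epcam-negative and Ptprc-positive barcodes, 1 point per library with its exact Poisson 95% interval. Cartilage-type collagens reach 467 and 264 in the keratin barcodes of the tumours, and fibrillar collagens 6734 and 565 in their keratin-low Epcam-negative barcodes; the 2 weeks library has too few Ptprc-positive barcodes to plot.

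Fibrillar collagens were low in keratin barcodes outside tumour 1, none reaching 3 CPM there but Col5a2 in tumour 2. Col1a1, the alpha 1 chain of collagen I, stood at 0, 0.935, 38.9 and 1.55 CPM, its partner chain Col1a2 at 0.189, 2.80, 38.2 and 2.59, and Col3a1, the chain of collagen III, at 0, 0.467, 42.5 and 0.776. Tumour 1 alone was high in each. Among its 397 keratin barcodes, the top barcode of each gene held 54.1% of the Col1a1 UMIs, 60.9% of the Col1a2 UMIs and 33.8% of the Col3a1 UMIs. Without the top barcode of each gene the levels were 17.9, 15.0 and 28.2 CPM. The top barcode was found gene by gene, and whether it was the same for these genes was not recorded. At a fixed depth of 2000 UMIs, Col1a1 was seen in 3.02% of tumour 1 keratin barcodes (exact binomial 95% interval 1.57 to 5.22). In tumour 2 the share was 0.241%. Ptprc-positive barcodes of the same tumours held it in 3.16% and 1.36%. The keratin share of Col1a1 was thus no higher than the Ptprc-positive share in either tumour. The source of these UMIs was not tested. Col5a1 and Col5a2, chains of the collagen V that nucleates fibrils, were at 0, 0, 4.54 and 1.55 CPM and at 0.189, 0, 14.2 and 9.57 CPM.

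Within the keratin barcodes of tumour 1 the fibrillar chains were higher in barcodes without an Epcam UMI. In the 52 without an Epcam UMI, Col1a1 stood at 231 CPM and Col3a1 at 249, against 10.1 and 11.6 in the 345 with one; without the top barcode of each gene the 52 held 71.0 and 141 CPM. Dcn, the collagen-binding proteoglycan decorin, stood at 683 against 18.2 CPM, or 515 without its top barcode. Macrophage markers summed to 1371 against 308 CPM in the same split, leukocyte markers to 298 against 128 and fibroblast markers to 48.9 against 23.6. Col9a1 went the other way, at 17.4 against 228 CPM. In tumour 2 the split gave 30 and 385 barcodes, and Col1a1 was at 4.13 and 1.38 CPM. Barcodes that join 2 cells were not removed, and their part, like that of the marker genes, in the fibrillar levels of the 52 barcodes was not tested.

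The keratin-low Epcam-negative class carried the fibrillar chains in every library. Col1a1 stood there at 196, 29.1, 2148 and 184 CPM, Col1a2 at 209, 47.0, 2024 and 158, and Col3a1 at 411, 48.0, 2115 and 122. Tumour 1 was the highest library for each, and 5 months the lowest. Col5a1 was at 11.0, 1.00, 127 and 18.0 CPM and Col5a2 at 46.2, 8.29, 320 and 82.5. In the leukocyte-marker-low barcodes Col1a1 was at 207, 250, 5791 and 329 CPM, so that the 5 months level, lowest in the whole class, was above those of 2 weeks there. In Ptprc-positive barcodes of the 5 months, tumour 1 and tumour 2 libraries Col1a1 was at 2.00, 106 and 55.4 CPM.

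Among basement membrane genes, Col4a1 and Col4a2 encode the chains of the commonest collagen IV network and are transcribed in opposite directions from 1 shared region. Their promoter windows (300 bases, most of them upstream of the annotated start, RefSeq, GRCm38.p6) are printed because the windows overlap; capitals mark the 78 shared bases at chr8:11312777-11312854. Col4a1 is read on the minus strand from chr8:11312777-11313076 and Col4a2 on the plus strand from chr8:11312555-11312854.
Col4a1: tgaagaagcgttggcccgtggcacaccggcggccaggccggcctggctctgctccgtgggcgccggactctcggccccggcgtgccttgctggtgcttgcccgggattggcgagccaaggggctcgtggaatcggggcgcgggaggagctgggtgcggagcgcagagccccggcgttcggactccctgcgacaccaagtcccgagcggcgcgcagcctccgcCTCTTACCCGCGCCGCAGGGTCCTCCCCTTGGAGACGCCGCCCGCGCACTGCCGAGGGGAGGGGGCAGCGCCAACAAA
Col4a2: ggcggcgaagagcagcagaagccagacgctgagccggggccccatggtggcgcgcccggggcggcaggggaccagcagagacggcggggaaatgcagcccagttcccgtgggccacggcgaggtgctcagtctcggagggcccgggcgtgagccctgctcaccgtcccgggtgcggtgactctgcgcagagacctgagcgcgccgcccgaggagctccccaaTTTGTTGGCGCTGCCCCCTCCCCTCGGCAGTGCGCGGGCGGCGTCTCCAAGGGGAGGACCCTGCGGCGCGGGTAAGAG
The motif GGGCGG, read on either strand, was found 1 time in the Col4a1 window and 3 times in that of Col4a2, and CCAAT 1 time in each. No TATAAA was found in either window.

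The collagen IV pair was high in both tumours. In keratin barcodes Col4a1 stood at 10.4, 5.61, 79.4 and 47.3 CPM and Col4a2 at 3.02, 7.48, 60.3 and 32.6. Both tumours were above both earlier libraries for each gene. Keratin-low Epcam-negative barcodes held 63.8, 4.27, 273 and 265 CPM of Col4a1 and 35.2, 2.76, 159 and 199 of Col4a2, and were above the keratin barcodes in every library but 5 months. In leukocyte-marker-low barcodes the 5 months values were 38.3 CPM for Col4a1 and 25.5 for Col4a2.

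Col18a1, which encodes the collagen XVIII core protein from which endostatin is cut, was the basement membrane gene with the highest keratin-barcode level in both tumours. It stood at 3.39, 2.34, 176 and 74.5 CPM there. In tumour 2, 23.6% of these UMIs came from 1 barcode, and the level without it was 59.0 CPM. At 2000 UMIs it was seen in 0.613, 0.248, 21.2 and 9.64% of keratin barcodes and in 0.0689, 1.45 and 0.819% of the Ptprc-positive barcodes of the last 3 libraries. The keratin-low Epcam-negative class held 68.2, 1.51, 62.9 and 36.6 CPM of Col18a1, less than the keratin barcodes of the same tumours. Col15a1, the collagen XV of vessel and muscle basement membranes, was found mainly on the Epcam-negative side, with 39.6, 3.52, 101 and 10.7 CPM against 0, 0, 1.21 and 0.259 in keratin barcodes.

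Summed cartilage-type collagens were higher in keratin than in Ptprc-positive barcodes of the last 3 libraries, and higher than in keratin-low Epcam-negative barcodes of the 5 months and tumour 1 libraries. At 2 weeks the sums were 14.1 (11.1 to 17.7) and 11.0 (3.57 to 25.7) CPM, with overlapping intervals. Col9a1, Col9a2 and Col9a3 encode the 3 chains of collagen IX, and Col11a1 and Col11a2 encode chains of collagen XI. The promoter windows of 3 of these genes are printed, from RefSeq GRCm38.p6, so that their sequences can be compared; Col9a1 has 2 annotated starts. Capitals mark GGGCGG or CCAAT on either strand. The windows are chr1:24177360-24177659 and chr1:24194953-24195252 for Col9a1, chr4:121039316-121039615 for Col9a2 and chr3:114030290-114030589 for Col11a1, all on the plus strand.
Col9a1 start 1: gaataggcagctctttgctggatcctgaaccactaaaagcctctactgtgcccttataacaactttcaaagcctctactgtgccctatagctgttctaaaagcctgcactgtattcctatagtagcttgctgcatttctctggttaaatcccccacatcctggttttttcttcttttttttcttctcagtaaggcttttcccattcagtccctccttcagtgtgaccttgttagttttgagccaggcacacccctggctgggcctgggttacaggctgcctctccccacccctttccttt
Col9a1 start 2: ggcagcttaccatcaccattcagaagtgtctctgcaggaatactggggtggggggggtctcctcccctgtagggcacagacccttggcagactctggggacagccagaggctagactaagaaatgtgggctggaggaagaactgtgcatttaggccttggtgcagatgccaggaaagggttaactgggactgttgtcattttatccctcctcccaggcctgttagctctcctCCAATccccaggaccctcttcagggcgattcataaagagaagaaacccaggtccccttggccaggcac
Col9a2: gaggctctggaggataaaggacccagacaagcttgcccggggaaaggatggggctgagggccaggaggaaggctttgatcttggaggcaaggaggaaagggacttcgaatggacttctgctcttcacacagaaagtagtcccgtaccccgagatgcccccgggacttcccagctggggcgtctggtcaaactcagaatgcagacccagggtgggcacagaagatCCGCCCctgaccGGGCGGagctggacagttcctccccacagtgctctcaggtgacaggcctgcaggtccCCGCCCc
Col11a1: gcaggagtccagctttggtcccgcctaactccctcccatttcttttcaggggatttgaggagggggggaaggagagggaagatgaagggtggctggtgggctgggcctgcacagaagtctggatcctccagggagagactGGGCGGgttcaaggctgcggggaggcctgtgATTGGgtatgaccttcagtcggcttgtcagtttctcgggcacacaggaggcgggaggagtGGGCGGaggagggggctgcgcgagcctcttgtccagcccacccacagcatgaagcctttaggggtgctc
The first Col9a1 window held neither motif and the second held CCAAT 1 time, while Col9a2 had 3 matches to GGGCGG and Col11a1 had 2, with 1 CCAAT. The letters ACAAAG or ACAATG, which SOX family factors can bind, were in none of these 4 windows. Of 29 windows found for 23 members, 62.1% held GGGCGG, 27.6% CCAAT, 17.2% TATAAA and 3.45% a SOX motif, the last a single window of Col3a1. Among 32851 windows of all genes the shares were 35.7, 37.4, 13.6 and 28.6%. Both strands were read, matches of different motifs may overlap, and a match is a description of the sequence only.

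Col9a1 stood at 2.26 (1.17 to 3.95), 20.6 (14.9 to 27.6), 201 (190 to 212) and 101 (91.6 to 112) CPM in keratin barcodes. The 4 intervals did not overlap, and no single barcode held more than 16.7% of its UMIs in any library. At 2000 UMIs Col9a1 was seen in 0.306, 3.47, 22.4 and 14.7% of keratin barcodes, against 0.0689, 0.659 and 2.05% of Ptprc-positive barcodes of the last 3 libraries, whose median depths were 2346, 6772 and 6024 UMIs. In the keratin-low Epcam-negative class Col9a1 was at 0, 0, 10.4 and 190 CPM, so the tumours differed there: tumour 1 held it in keratin barcodes and tumour 2 in both classes.

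Col11a1, the collagen XI chain that sets fibril width in cartilage, was at 1.13, 7.48, 207 and 41.9 CPM in keratin barcodes. Seen at 2000 UMIs in 0.204, 1.99, 30 and 6.99% of them, it was in 0, 0.922 and 1.09% of the Ptprc-positive barcodes. Col9a2 stood at 3.77, 15.0, 26.0 and 54.0 CPM and Col9a3 at 6.6, 32.7, 32.5 and 65.7, so tumour 2 was the higher tumour for both, and the 5 months level of Col9a3 equalled that of tumour 1 within counting error. Col11a2 was near the floor everywhere in keratin barcodes, at 0.377, 2.80, 0.151 and 0.776 CPM. In keratin-low Epcam-negative barcodes Col9a3 was at 2.20, 0.754, 0.613 (0.126 to 1.79, from 3 UMIs) and 104 CPM, and Col11a1 at 4.40, 0, 31.5 and 69.7.

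More than 1 of these collagens was found together in a minority of the keratin barcodes of the tumours. At 2000 UMIs, 2.25, 13.2, 47.9 and 32.8% of keratin barcodes held at least 1 of the 5 cartilage-type genes, and 0.102, 1.49, 15.9 and 6.99% at least 2. Whether the latter shares exceed those expected from the single genes was not tested. Col2a1, the collagen II chain of cartilage, is no member; it was at 0, 0, 95.7 and 16.8 CPM in keratin barcodes, and Acan, which encodes the cartilage proteoglycan aggrecan, at 0, 0, 8.92 and 4.65. Sox9, the regulator of both in cartilage and also a luminal progenitor gene, stood at 218, 279, 200 and 252 CPM. Its partners Sox5 and Sox6 stood at 0.943, 7.01, 44.6 and 11.9 and at 0, 1.87, 1.81 and 4.40 CPM. None of the 3 passed against 2 weeks (median log2 difference 4.99, edgeR). Sox9 did not share that median, with 218 CPM at 2 weeks and 200 and 252 in the tumours.

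**Figure D2:**
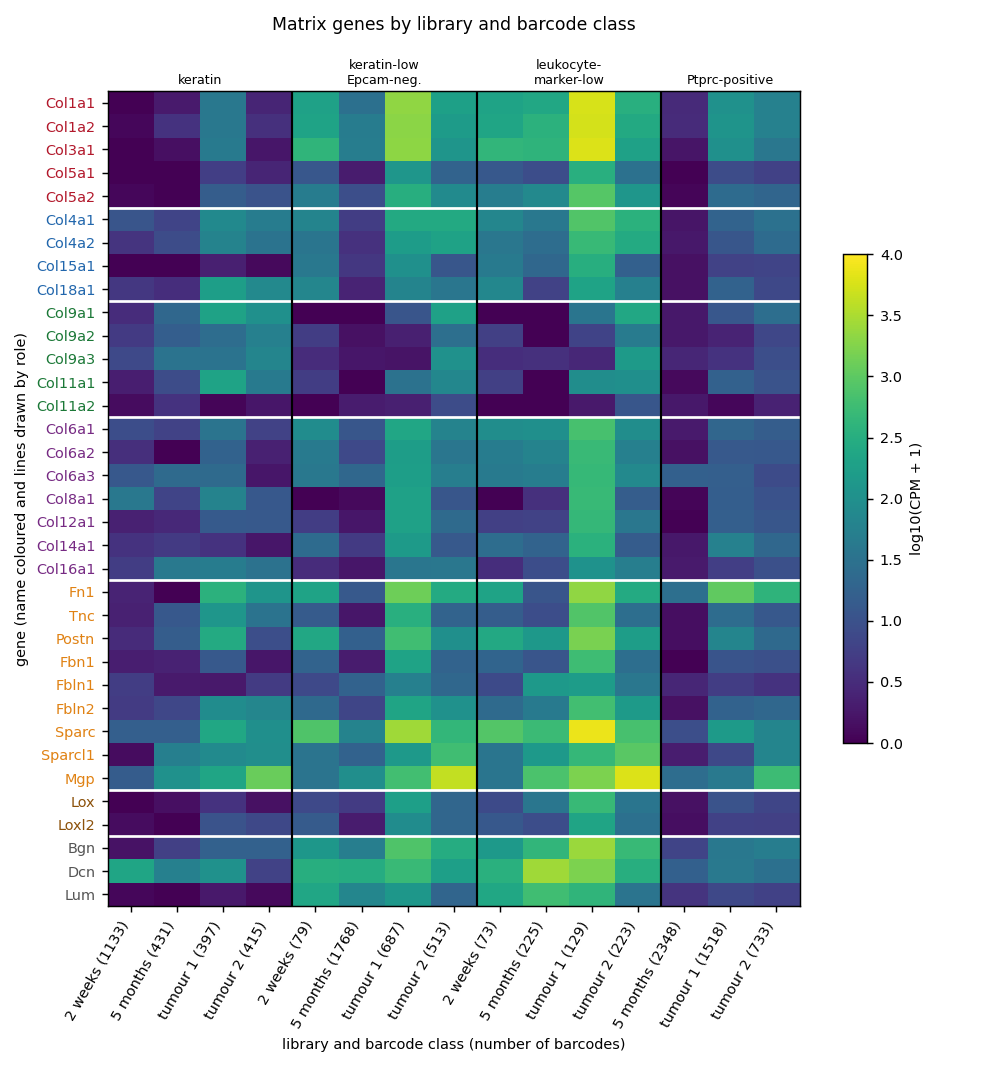
Level of each gene, log10 of CPM plus 1, by library within keratin, keratin-low Epcam-negative, leukocyte-marker-low and Ptprc-positive barcodes, with the number of barcodes in parentheses and genes grouped by role. Col9a1 and Col11a1 are bright in the keratin barcodes of the tumours (201 and 101, 207 and 41.9 CPM), while Col1a1, Col1a2 and Col3a1 are brightest in the leukocyte-marker-low barcodes of tumour 1.

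Beaded, network and fibril-associated collagens showed no common course. Col6a1, Col6a2 and Col6a3, the chains of the beaded filaments of collagen VI, were at 7.92, 5.14, 33.4 and 5.17, at 2.45, 0, 16.9 and 1.29 and at 11.7, 22.9, 23.3 and 0.776 CPM in keratin barcodes. Col8a1, a network collagen of vessels and eye, was at 38.6, 5.61, 60.6 and 11.6 CPM, and Col16a1, a fibril-associated collagen, at 4.34, 40.7, 46.7 and 30.8. Col16a1 was thus high in every library but 2 weeks, and Col8a1 low at 5 months and in tumour 2. Col12a1 and Col14a1, which bind the surface of collagen I fibrils, stood at 1.32, 1.87, 12.4 and 11.9 and at 2.83, 3.74, 2.87 and 0.776 CPM. In keratin-low Epcam-negative barcodes of tumour 1 these 7 genes ranged from 35.5 CPM for Col16a1 to 230 for Col6a1. Ptprc-positive barcodes held Col14a1 at 0.799, 55.4 and 20.6 CPM and Col6a3 at 16, 15.2 and 7.20, the first of which was above the keratin level in both tumours.

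Among glycoproteins in keratin barcodes, Fn1 was the most abundant in tumour 1 and Mgp in tumour 2. Fn1 encodes fibronectin, which links cells to collagen through integrins, and stood at 1.51 (0.651 to 2.97), 0 (up to 1.72), 376 (361 to 391) and 123 (112 to 134) CPM. The tumours lay far above both earlier libraries, which held 8 and 0 UMIs. Ptprc-positive barcodes held more Fn1 than keratin barcodes in each of the last 3 libraries, at 27.4, 1047 and 397 CPM, and at 2000 UMIs it was seen in 26.7 and 15.7% of keratin barcodes of the tumours against 56.9 and 27.8% of Ptprc-positive barcodes. Macrophage markers in the keratin barcodes summed to 3.02, 80.4, 446 and 112 CPM, with all 6 of the list detected in both tumours, and their part in the Fn1 level was not tested.

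Mgp, matrix Gla protein, an inhibitor of mineral deposition, stood at 13.6, 106, 222 and 1202 CPM in keratin barcodes. Tumour 2 was high, and the 5 months value was 42.7 CPM without 1 barcode that held 59.7% of the UMIs. Mgp was also the leading gene of the keratin-low Epcam-negative class of tumour 2, at 33.0, 93.0, 608 and 4299 CPM, and was at 547 CPM in the Ptprc-positive barcodes of that tumour. Sparcl1, a secreted relative of Sparc, was at 0.377, 52.8, 82.2 and 92.3 CPM in keratin barcodes, the 5 months value being 35.6 without its top barcode. Sparc, which binds collagen I and IV, was at 15.5, 15.4, 237 and 98.3 CPM and Fbln2, a fibulin of basement membranes and elastic fibres, at 3.96, 6.08, 88.0 and 68.0. For these 2 genes both tumours lay above both earlier libraries.

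Tnc and Postn separated the tumours. Tnc encodes tenascin-C, a glycoprotein of wounds and tumour stroma, and stood at 1.32, 11.7, 125 and 31.8 CPM in keratin barcodes. Postn, or periostin, stood at 2.07, 14.0, 277 and 8.02 CPM, so that tumour 2 was below the 5 months library. Postn was seen at 2000 UMIs in 28.7% of tumour 1 keratin barcodes and in 1.2% of those of tumour 2. Fbn1, the fibrillin of microfibrils, was at 1.13, 1.40, 12.1 and 0.776 CPM and Fbln1 at 4.34, 0.935, 0.907 and 3.88. In keratin-low Epcam-negative barcodes Sparc was the highest of the 35 genes in tumour 1 and at 2 weeks, at 799, 59.5, 2659 and 443 CPM, and Tnc was at 13.2, 0.754, 331 and 17.7.

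Cross-linking enzymes were scarce in keratin barcodes. Lox, lysyl oxidase, was at 0, 0.467, 2.87 and 0.517 CPM and its relative Loxl2 at 0.377, 0, 9.37 and 6.47. Both were concentrated in the keratin-low Epcam-negative barcodes of tumour 1, with 179 CPM of Lox and 87.6 of Loxl2, against 20 and 19.8 in tumour 2.

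Of the proteoglycans, Dcn was the only member whose keratin-barcode level was highest at 2 weeks among those above 50 CPM in any library. It stood at 226, 53.3, 105 and 5.17 CPM, and 20.3% of the 2 weeks keratin barcodes held it at a depth of 2000 UMIs. In tumour 2, 1 barcode held 90.0% of its UMIs and the level without it was 0.519 CPM. Fibroblast markers in keratin barcodes summed to 2.45, 29.9, 26.9 and 32.8 CPM, with Pdgfra, Dpt, Clec3b and Islr at 0 at 2 weeks, where Dcn was highest. Bgn, or biglycan, was at 0.566, 4.67, 16.3 and 16.3 CPM, with 59.3% of the tumour 1 UMIs in 1 barcode and 6.67 CPM without it. Lum, or lumican, was at 0.189, 0, 0.907 and 0.259 CPM in keratin barcodes and at 229, 67.1, 129 and 19.2 in the keratin-low Epcam-negative class.

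Whether matrix RNA differed between tumours and premalignant epithelium was tested in summed keratin barcodes, with the 2 tumours as the replicated group and each earlier time as 1 library. The earlier epithelial cells were sorted on YFP and the tumours were not, so stage and sort could not be told apart. Against 2 weeks, 23 of the 32 members that passed the low-count filter had an unadjusted p under 0.05 and none of the 35 passed after adjustment over 12352 genes (edgeR quasi-likelihood test, Benjamini-Hochberg). None of all genes did either: percent called was 0 in each direction, with 1883 genes at an unadjusted p under 0.05, while DESeq2 called 515 genes, 373 higher and 142 lower, among them 16 members, all higher. The members tested had a median log2 difference of 4.40, or 3.80 with the 4 genes at 0 in 1 group set at their bound, beside 0.05 for all genes. These members passed the filter largely through the tumours, so the median is a description.

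The differences nearest the threshold against 2 weeks were those of Sparcl1 (7.84 ± 0.82 on the log2 scale, adjusted p 0.0539, edgeR), Col9a1 (6.16 ± 0.90, adjusted p 0.0680), Fbln2 (4.39 ± 0.68, adjusted p 0.0745) and Fn1 (7.46 ± 1.2, adjusted p 0.0809). Both tumours were above the 2 weeks library in each. Col18a1 differed by 5.31 ± 0.93 (adjusted p 0.0923), Col11a1 by 6.88 ± 1.47 (adjusted p 0.129), Mgp by 5.77 ± 1.30 (adjusted p 0.135) and Col4a1 by 2.72 ± 0.68 (adjusted p 0.159). Dcn differed by -1.89 ± 1.37 (adjusted p 0.570). Col1a1 and Col3a1, at 0 at 2 weeks, had 257 and 281 UMIs in tumour 1 but only 6 and 3 in tumour 2. The 16 members that DESeq2 called were Col1a2, Col4a1, Col4a2, Col18a1, Col9a1, Col9a2, Col9a3, Col11a1, Col16a1, Fn1, Tnc, Fbln2, Sparc, Sparcl1, Mgp and Bgn.

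Against 5 months, with the same tumours in both comparisons, no member passed either. Of 32 members tested 13 had an unadjusted p under 0.05, and percent called was again 0 in both directions (0 of 12352 genes, 1017 at an unadjusted p under 0.05). DESeq2 called 127 genes, 48 higher and 79 lower, among them 7 members, all higher: Col4a1, Col18a1, Col9a1, Col11a1, Fn1, Fbln2 and Sparc. Members tested had a median log2 difference of 2.68, or 2.63 with 5 genes at their bound, beside 0.06 for all genes. They passed the filter largely through the tumours here too, so this median is also a description. Col18a1 differed by 5.68 ± 1.01 (adjusted p 0.222, edgeR), Fbln2 by 3.62 ± 0.67 (adjusted p 0.240) and Col9a1 by 2.83 ± 0.73 (adjusted p 0.385), each higher in both tumours. Fn1, at 0 UMIs at 5 months, was at the 376 and 123 CPM given above in the tumours. Col9a3 differed by 0.50 ± 0.62 (adjusted p 0.912) and Col16a1 by -0.12 ± 0.57 (adjusted p 0.980). The test had 1 residual degree of freedom, from the spread between the tumours.

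Keratin barcodes of the 5 months and 2 weeks libraries, 1 library each, were compared by size with no test. Of 8 members at 20 CPM or more in either, 6 were at least 2-fold higher at 5 months, where 14.9% of 5843 such genes were, and 2 at least 2-fold lower, where 14.4% were. Col16a1 was 10.1-fold, Col9a1 9.8-fold, Mgp 8.39-fold, Col9a3 5.35-fold and Col6a3 2.11-fold higher, and Sparcl1 had 2 UMIs at 2 weeks and 113 at 5 months. Without its top barcode Mgp was at 42.7 CPM at 5 months, against 13.6 at 2 weeks with all barcodes. Col8a1 was 0.157 and Dcn 0.254 times the 2 weeks level.

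The Ptprc-positive barcodes of the tumours also held more matrix RNA than those at 5 months, 2042 and 1609 CPM against 123 over the 35 genes. Fn1 made up 1047 and 397 of these. No member passed adjustment (35 tested, smallest adjusted p 0.166, edgeR), and 27 had an unadjusted p under 0.05. Percent called was 0 for higher and 0.00811 for lower, the latter 1 of 12332 genes, Csn2, a milk casein named after its value was seen; 1975 genes had an unadjusted p under 0.05. DESeq2 called 461 genes, 343 higher and 118 lower, among them 23 members, all higher. Macrophage markers also differed between these barcodes, with 8098 to 20532 CPM in the tumours against 2574 at 5 months, and 66.0 to 98.4% of barcodes against 18.8% held at least 2 of their UMIs; their part in the matrix levels was not tested. The median log2 difference of the members was 4.45, or 4.41 with 3 genes at their bound, beside 0.04 for all genes. It is a description, since the members passed the filter largely through the tumours. Fibrillar Col1a1 differed by 5.31 ± 0.75 (adjusted p 0.166) and Col6a3 by -0.51 ± 0.58 (adjusted p 0.690).

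How the classes of 1 library differed was tested with the library as a block. Members defined none of the classes. The genes that did, Krt8, Krt18, Epcam and Ptprc, were not taken out before the fits. In keratin-low Epcam-negative against keratin barcodes of all 4 libraries, 14 of 34 members tested were higher and none lower, where percent called was 4.12 for higher and 2.14 for lower among 10885 genes (682 called in all). All 5 fibrillar chains rose, led by Col3a1 (7.37 ± 0.95, adjusted p 0.00596, edgeR) and Col1a1 (6.82 ± 0.83, adjusted p 0.00519), each higher in 4 of 4 libraries. Lum (8.04 ± 0.68, adjusted p 0.00394), Col15a1 (6.74 ± 0.71, adjusted p 0.00413), Lox (5.60 ± 0.62, adjusted p 0.00429) and Bgn (5.15 ± 0.67, adjusted p 0.00598) rose too, as did Col6a1, Col6a2, Fbn1, Sparc and Loxl2. No cartilage-type gene passed: Col9a1 was at -3.00 ± 1.41 (adjusted p 0.340), lower in 3 of 4 libraries, with tumour 2 the exception. Col18a1 was at 0.03 ± 0.95 (adjusted p 0.995). Without tumour 1, 7 of 32 members and 160 of 10872 genes were higher, and without 5 months 17 of 34 members and 316 of 11267 genes were. Without tumour 2, Col9a1 and Col9a3 passed as lower. In the leukocyte-marker-low barcodes 22 of 34 members were higher, where 207 of 9248 genes were higher and 136 lower. Col4a1, Col4a2, Col14a1, Postn, Fbln2, Sparcl1, Mgp and Dcn were the members added there.

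**Figure D3:**
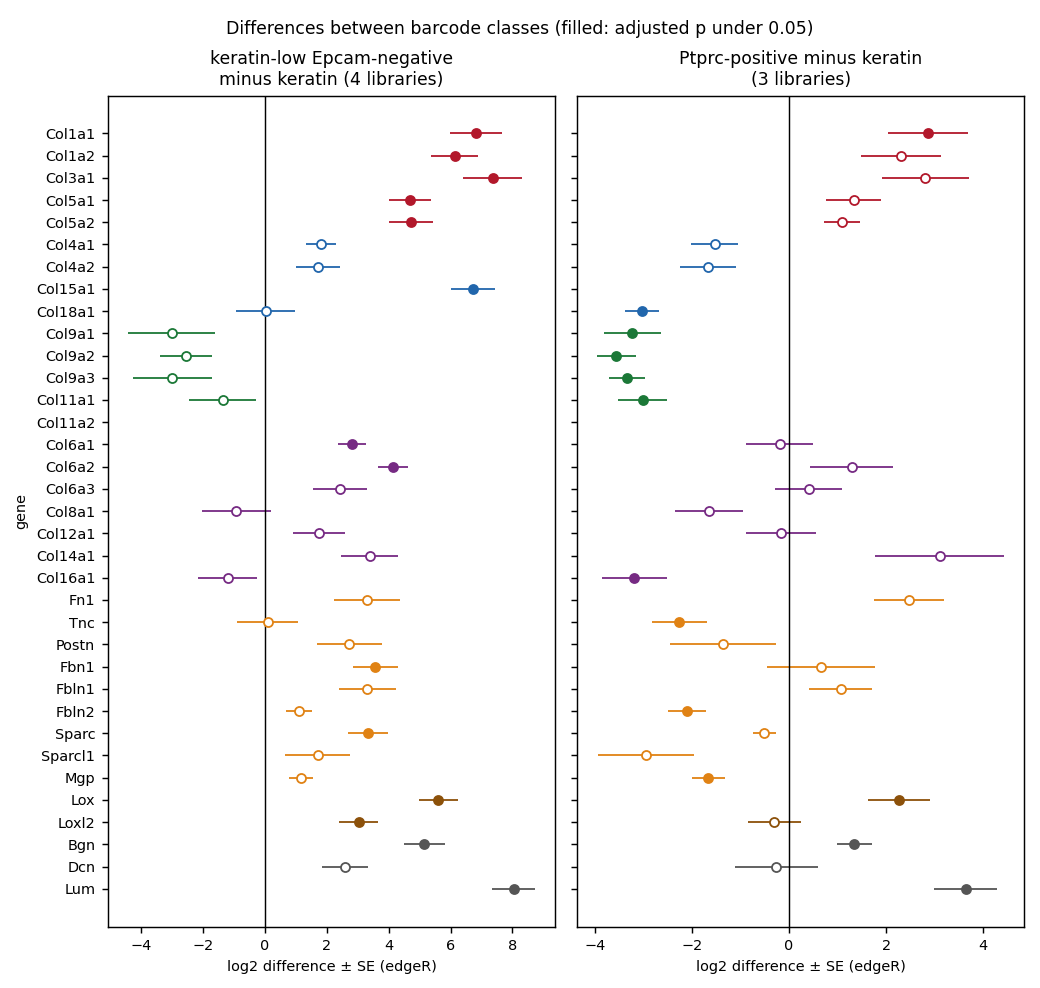
Log2 difference ± SE (edgeR) of each tested member between keratin-low Epcam-negative and keratin barcodes of 4 libraries, and between Ptprc-positive and keratin barcodes of 3 libraries; filled points have an adjusted p under 0.05. Fibrillar chains lie between 4.70 and 7.37 on the left, and Col9a1, Col9a2, Col9a3 and Col11a1 between -3.56 and -3.02 on the right.

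Against Ptprc-positive barcodes, the cartilage-type chains Col9a1, Col9a2, Col9a3 and Col11a1 marked the keratin barcodes. Col11a2 did not. It was near the floor, at 2.80, 0.151 and 0.776 CPM in keratin barcodes of the 5 months, tumour 1 and tumour 2 libraries. Their Ptprc-positive barcodes held it at 0.799, 0.174 and 1.44 CPM. Of 33 members tested in the 5 months and tumour libraries, 9 were lower and 4 higher in Ptprc-positive barcodes, where percent called was 12.1 for lower and 11.9 for higher among 11536 genes. Col9a2 (-3.56 ± 0.39, adjusted p 0.00189, edgeR), Col9a3 (-3.33 ± 0.37, adjusted p 0.00197), Col9a1 (-3.23 ± 0.59, adjusted p 0.00969) and Col11a1 (-3.02 ± 0.50, adjusted p 0.00687) were lower in 3 of 3 libraries, together with Col18a1 (-3.03 ± 0.35, adjusted p 0.00219), Col16a1, Tnc, Fbln2 and Mgp. Lum (3.64 ± 0.65, adjusted p 0.00883), Col1a1 (2.86 ± 0.82, adjusted p 0.0486), Lox and Bgn were higher. These 4 of 33 members were a share near the 11.9% of all genes, so the count sets the members apart from other genes in no way. The 4 higher calls rested on few libraries: 2 members were called higher without tumour 1, none without tumour 2 and 10 without 5 months, while the lower calls numbered 7, 13 and 10. With library size alone as the scale, which moved the median of all genes by -0.20, 1 member was called higher.

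Keratin-low Epcam-negative barcodes exceeded Ptprc-positive barcodes of the same 3 libraries in 11 of 33 members tested and fell below them in none, where percent called was 0.864 for higher and 0.0546 for lower among 10993 genes. Col4a1 (3.35 ± 0.28, adjusted p 0.0198, edgeR), Fbln1 (3.28 ± 0.26, adjusted p 0.0198), Sparcl1 (3.77 ± 0.33, adjusted p 0.0210) and Dcn (3.46 ± 0.37, adjusted p 0.0319) led, followed by Sparc, Col4a2, Fbln2, Bgn, Col18a1, Col6a1 and Mgp. Each was higher in 3 of 3 libraries. Among all genes, the 6 called lower included Ptprc, Epcam, Krt8 and Krt18, which define the classes. Fn1 was at -0.46 ± 0.28 (adjusted p 0.580). Without tumour 1, 2 members and 5 of 11117 genes were higher, and without tumour 2, 26 members and 198 of 11488 genes. Without 5 months, 24 members and 697 of 11394 genes were higher. In leukocyte-marker-low barcodes 23 members and 562 of 10323 genes were. No member was lower in any of these fits.

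The tumours differed from each other in which matrix genes they held, compared by size with no test. In keratin barcodes 15 of 22 members at 20 CPM or more were at least 2-fold higher in tumour 1, where 11.9% of 5782 genes were, and 1, Mgp, was lower at 0.203 times tumour 2, where 7.37% were. Postn was 38.1-fold, Col11a1 5.46-fold and Col9a1 2.19-fold higher. Some of the 15 rested on 1 barcode each. Without the top barcode of each gene, Col1a1 and Col1a2 were at 17.9 and 15.0 CPM in tumour 1, under the minimum of 20. Dcn was then at 80.9 CPM in tumour 1 and 0.519 in tumour 2. In keratin-low Epcam-negative barcodes 24 of 34 were higher in tumour 1, where 15.1% of 6061 genes were, and 5 lower, where 10% were: Col9a1 at 0.0614, Col9a2 at 0.0493, Mgp at 0.159 and Sparcl1 at 0.266 times tumour 2, and Col9a3, which had 3 UMIs in tumour 1 and 359 in tumour 2. In Ptprc-positive barcodes 8 of 17 were higher in tumour 1, where 6.47% of 5300 genes were, and 3 lower, where 5.96% were: Mgp at 0.0824, Sparcl1 at 0.105 and Col9a1 at 0.461 times tumour 2. Mgp was lower in tumour 1 in all 3 classes.

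**Figure D4:**
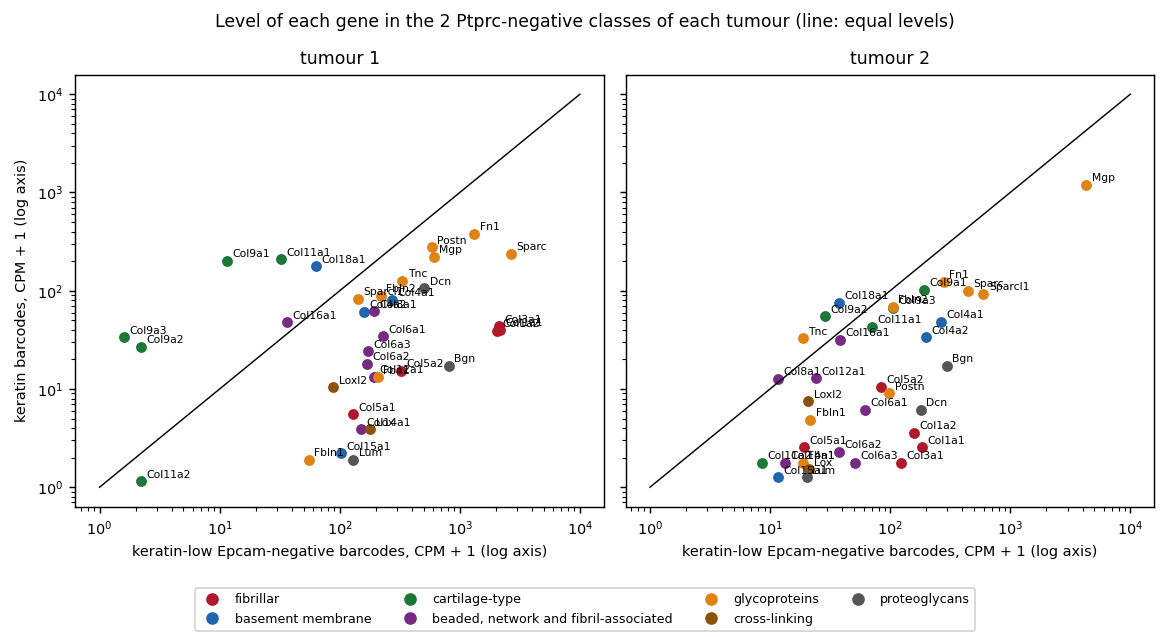
Level of each gene in keratin barcodes (vertical, CPM plus 1, log axis) against keratin-low Epcam-negative barcodes (horizontal, same units) of tumour 1 and tumour 2, with a line of equal levels. In tumour 1 Col9a1, Col9a2, Col9a3, Col11a1, Col18a1 and Col16a1 lie above the line, whereas in tumour 2 Col9a1 and Col9a3 lie below it, with Mgp at 4299 and 1202 CPM at the far right.

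Barcodes of the keratin-low Epcam-negative class were then split by markers of fibroblasts, pericytes and endothelium, and by Cdkn2a, a gene of the tumour keratin barcodes (510 and 583 CPM, against 4.15 and 11.7 before). Sets under 20 barcodes were left out, and these values had no test. Fibroblast-marker barcodes (21 at 5 months, 88 in tumour 1, 66 in tumour 2) held Dcn at 18768, 2453 and 959 CPM, Lum at 4743, 539 and 91.7, and Col1a1 at 1972, 8243 and 500. Dcn and Lum were thus highest at 5 months and Col1a1 in tumour 1. Tnc was at 55.8, 1085 and 46.7 CPM, Fn1 at 74.4, 2465 and 580, and Col8a1 at 0, 593 and 23.4, all highest in tumour 1. In tumour 2 the set went partly against its name, with Cdkn2a at 599 CPM, Col9a1 at 227 and Col9a3 at 135.

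In tumour 1, endothelial-marker and pericyte-marker barcodes held more collagen IV than the other sets, and in tumour 2 pericyte-marker barcodes did. Endothelial-marker barcodes of tumour 2 (14) were too few for a level. Endothelial-marker barcodes (21 at 2 weeks, 31 in tumour 1) held Col4a1 at 37.4 and 2455 CPM, Col4a2 at 10.7 and 1502, Col18a1 at 53.4 and 544 and Sparc at 235 and 7404. At 2 weeks the set was thus below the whole class in Col4a1 and Col4a2 (63.8 and 35.2 CPM). Pericyte-marker barcodes (38 in tumour 1, 25 in tumour 2) held Col4a1 at 1354 and 1424 CPM, Col4a2 at 669 and 1089, Col15a1 at 467 and 96.6 and Sparcl1 at 800 and 1746. Fibroblast-marker barcodes held Col4a1 at 242, 259 and 322 CPM, below both sets in tumour 1. Cdkn2a barcodes of tumour 2 (134) held Mgp at 5331 CPM, Col9a1 at 322, Col9a3 at 151, Col11a1 at 98.8 and Col1a1 at 35.4, the highest Col9a1 and Col9a3 levels of any set. The Cdkn2a barcodes of tumour 1 (39) held Col1a1 at 3595 CPM, Col9a1 at 5.6 and Col11a1 at 151, and macrophage markers there summed to 9411 CPM.

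**Figure D5:**
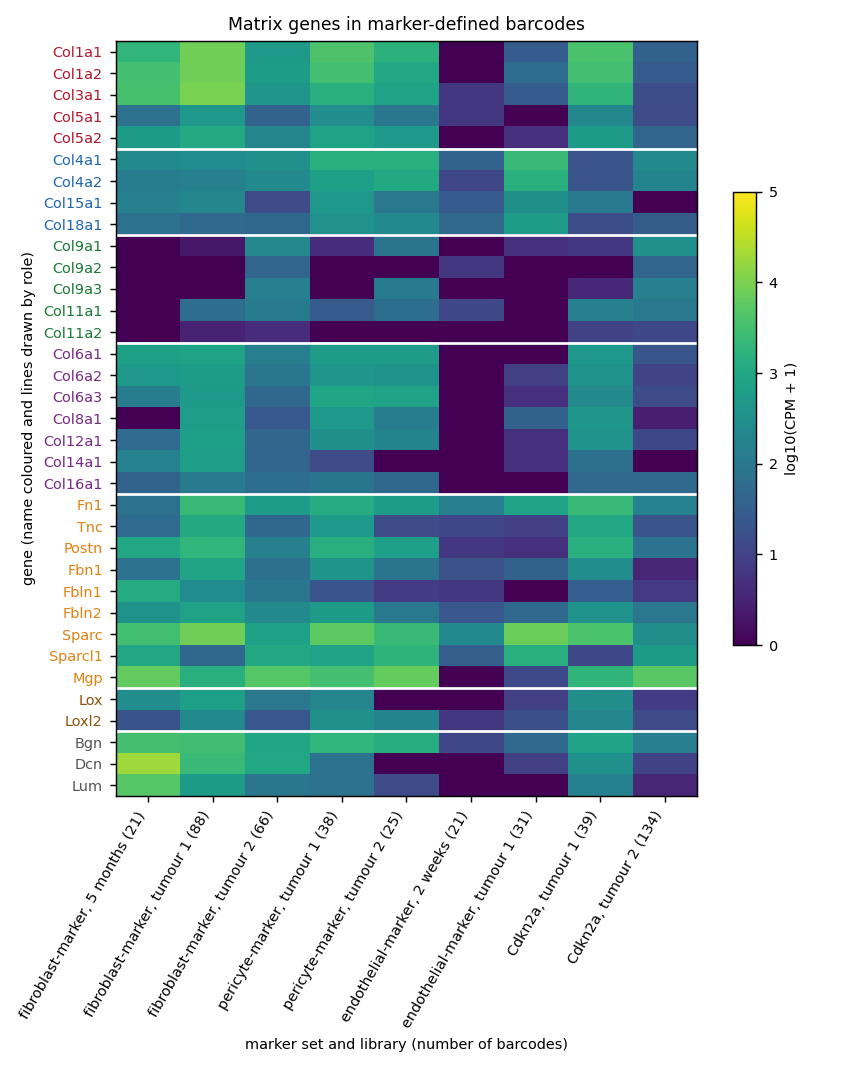
Level of each gene, log10 of CPM plus 1, in marker-defined barcodes of the keratin-low Epcam-negative class, with the number of barcodes in parentheses and genes grouped by role. Dcn is highest in fibroblast-marker barcodes at 5 months (18768 CPM), Col4a1 in endothelial-marker barcodes of tumour 1 (2455 CPM), and Col9a1 in Cdkn2a barcodes of tumour 2 (322 CPM).

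A wider list of 109 matrix-related genes outside the 35 also differed between classes. It held 67 core matrix proteins, 24 genes of collagen making and cross-linking, 15 matrix receptors and 3 chondrocyte regulators. In keratin barcodes of the tumours none passed against 2 weeks or 5 months (edgeR, 38, 22, 12 and 3 tested). Between keratin-low Epcam-negative and keratin barcodes 10 core genes of 34 tested rose, led by Mfap5 (7.16 on the log2 scale), Tnxb (5.96), Mfap4 (5.49), Tgfbi (4.80) and Eln, which encodes elastin (4.49), where 4.12% of all genes were higher and 2.14% lower. Among 11 receptors tested Itga5 rose by 1.95, and Itgb4 (-3.55), Ddr1 (-2.38) and Sdc4 (-1.88) were lower; 2 of 19 genes of collagen making rose, Loxl1 by 4.38 and Pcolce by 2.25. Between Ptprc-positive and keratin barcodes, where 11.9% of all genes were higher and 12.1% lower, 3 core genes of 35 tested were higher and 11 lower, among them the laminin chain Lama3 (-4.47) and the collagen IV chains Col4a6 (-3.42) and Col4a5 (-3.33). Of 20 genes of collagen making 6 were lower there and 1 higher, and of 11 receptors 6 were lower and 1 higher. All 3 chondrocyte regulators were lower there, Sox9 by -3.29, Sox5 by -2.87 and Sox6 by -2.44.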

How the data were processed

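Per the labels' protocols, libraries were made with the v2 chemistry of the 10x Chromium 3' kit. Cell Ranger and the builds mm10 and GRCm38 are named in the submitters' processing notes, with no version of Cell Ranger stated there. The deposited matrices hold whole-number UMI counts per gene and barcode, which the authors did not normalize, and list gene and barcode names separately. The 5 months library lists 694 further genes, which were left out. Barcodes were kept with at least 500 genes and at most 10% mitochondrial UMIs; before that filter the median depth of a library was 2162 to 6972 UMIs. Scrublet called 0 to 8 barcodes a library at its own threshold, too few to be used; doublets were kept, and the highest scores were left out in an alternative.

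The members and the lists of markers and matrix genes were chosen with earlier results of these data known. UMI counts were summed per library and class. Classes and groups were compared with edgeR 4.0.16 (R 4.3.3; filterByExpr, TMM, quasi-likelihood F test, Benjamini-Hochberg over all genes tested, threshold 0.05), with DESeq2 1.42.0 as an alternative and library as a block between classes. A class needed 30 barcodes in a library. Comparisons of 1 library with 1 counted genes at least 2-fold apart after 1 CPM was added, if the higher of both reached 20 CPM. Shares of barcodes were taken after thinning each to 2000 UMIs; shallower barcodes were left out, which left 979, 403, 397 and 415 keratin barcodes and 1451, 1518 and 733 Ptprc-positive ones. Marker sets needed 2 UMIs of their list and more than of either other list, or, for Cdkn2a, 1 UMI of it and fewer than 2 of each list. All 35 members are named, and of the wider list those past the threshold in comparisons with keratin barcodes, up to 5 in each direction. 1 gene of that list is not reported here. The fits were tested on simulated counts with known changes. Python 3.11.15 and scanpy 1.11.5 were used. Alternatives changed the tool, scaling, gene filter, barcode filter, keratin minimum, libraries, pseudocount, top barcode and thinned depth.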

Additional observations from a re-analysis of the deposited data

Results flagged for a closer look

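For 3 genes the tumours differed from 5 months in opposite directions in 2 barcode classes, each tumour moving the same way within a class; values are log2 of the tumour mean over the 5 months level after 1 CPM was added, and the differences between classes were not tested. Col14a1 was lower in keratin barcodes of both tumours (2.87 and 0.776 CPM against 3.74) and higher in keratin-low Epcam-negative barcodes (148 and 12.2 against 3.77), a gap of 4.84 between classes. In Ptprc-positive barcodes Col14a1 was at 55.4 and 20.6 CPM against 0.799, a gap of 5.19 from the keratin class. Col11a2 was lower in keratin barcodes (0.151 and 0.776 CPM against 2.80) and higher in keratin-low Epcam-negative barcodes (1.23 and 7.55 against 1.00), a gap of 2.81, on 10 and 36 UMIs in all. Col6a3 was higher in keratin-low Epcam-negative barcodes (172 and 50.3 CPM against 20.6) and lower in Ptprc-positive barcodes (15.2 and 7.20 against 16), a gap of -2.85. Tumour 1 and 5 months differed by no more than counting error for Col6a3 in Ptprc-positive barcodes (175 and 120 UMIs), for Col14a1 in keratin barcodes (19 and 8) and for Col11a2 in keratin-low Epcam-negative barcodes (6 and 4), where their 95% Poisson intervals overlap. The intervals of tumour 2 and 5 months also overlap in keratin barcodes for Col14a1 (3 and 8 UMIs) and Col11a2 (3 and 6). Neither tumour was thus below 5 months by more than counting error for Col14a1 in keratin barcodes.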

How the results depend on the processing

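No member past the threshold in the main fit changed direction under any alternative that could be fitted. Directions of other genes were not compared. Counts of calls moved, and the cause was not tested. For tumours against 2 weeks in keratin barcodes, 0 calls became 515 with DESeq2 (16 members higher), 544 with library size alone (15), 1262 without the gene filter (23 higher, 1 lower), 134 with all deposited barcodes (4), 99 without the highest Scrublet scores (2) and 204 with at least 5 keratin UMIs (5). For tumours against 5 months they became, in that order, 127 (7), 128 (3), 548 (18), 17, 13 and 35, the last 3 with no member. For Ptprc-positive barcodes, 1 call became 461 with DESeq2 (23 members), 0 with library size alone and 1471 without the filter (28).

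Between keratin-low Epcam-negative and keratin barcodes, 682 calls became 1337 with DESeq2 (22 members higher, 2 lower), 1535 without the filter (1 lower), 343 in leukocyte-marker-low barcodes (22 higher), an alternative chosen after seeing the data, and 1374 in the tumours alone (22). Leaving out 1 library gave 254 to 901 calls, with 7 to 17 members higher and 0 to 2 lower. Between Ptprc-positive and keratin barcodes, members higher numbered 7 with DESeq2, 1 with library size alone, 9 without the filter, 2 without the highest Scrublet scores and 10 in the tumours alone; leaving out 1 library gave 0 to 10, with 7 to 13 lower and 1863 to 3895 calls. Between keratin-low Epcam-negative and Ptprc-positive barcodes, 101 calls became 352 with DESeq2 (25 members), 557 without the filter (26), 1018 in leukocyte-marker-low barcodes (23) and 744 in the tumours alone (24), and 10 to 744 with 1 library left out (2 to 26). With library size alone, 2 members instead of 1 were at least 2-fold lower in tumour 1 keratin barcodes. For single members, 1492 alternatives kept the direction and the side of the threshold, 306 crossed it to a call and 34 lost a call. Another 47, of members not called in the main fit, changed sign. Of the levels, 510 left their 95% interval under an alternative and 820 did not, and of the shares at fixed depth 324 did and 341 did not. Between 2 weeks, 5 months and tumours no paired analysis was possible, because the labels link no library of a group to one of another. Classes were paired by library. Counts of a few UMIs limit Col1a1, Col5a1, Lox and Lum in keratin barcodes.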
